A study of Mus musculus with 6 samples.

Results

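Transcript levels were described for a list of 9 mouse enzymes that handle methionine: Mat2a, Mat2b, Ahcy, Mtr, Cbs, Cth, Amd1, Srm and Mtap. The list was chosen by name, as enzymes of the methionine cycle, of the transsulfuration route to cysteine and of the entry into polyamine synthesis, and their rows were found by Ensembl gene identifier. Of the 9, 8 had a row among the 19323 genes of the table, and Cbs was not analysed here. Bulk RNA-seq was done on primary CD8+ T cells isolated from spleen, in 3 libraries from mice on MCDHFD and 3 libraries from mice on ND. All mice were WT C57BL/6 and were 6 weeks old when the diets began, and both diets lasted 7 weeks. The labels call the animals models of MASH, metabolic dysfunction-associated steatohepatitis, and do not spell out the diet names. MCDHFD is usually read as a methionine- and choline-deficient high-fat diet and ND as a normal diet. The labels do not say whether the 3 libraries of a diet came from separate mice or from pools, so the tests measure the spread between libraries, which may be technical. The comparison asks how the genes that use methionine stood in splenic CD8+ T cells of mice fed the diet that is usually made without it.

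Methionine is activated to S-adenosylmethionine, the donor for nearly all methylation of DNA, histones, RNA and lipids. Once the methyl group is given away, S-adenosylhomocysteine remains and is split to homocysteine, which is either methylated back to methionine or passed through cystathionine to cysteine. S-adenosylmethionine can also be decarboxylated to supply the aminopropyl groups of spermidine and spermine, and the methylthioadenosine that this leaves is salvaged to methionine. T cells take up large amounts of methionine when they are activated, and polyamine synthesis is known to increase as they begin to divide.

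On MCDHFD, Cth, Amd1 and Mat2b rose, no member fell, and Mat2a, Ahcy, Mtr, Srm and Mtap did not pass the test. The test was limma on log2(normalized count + 1) with Benjamini-Hochberg adjustment over 13430 genes of a mean of at least 10, at an adjusted p under 0.05. All 8 measured members passed that filter, Cth only through the MCDHFD libraries. The 3 of 8 called higher stand against 30.3% of all tested genes called higher, and the 0 of 8 called lower against 28.1% called lower. No member was lower at an unadjusted p under 0.05 either, and edgeR and DESeq2 on the recovered reads each called 3 members higher and 0 lower. The libraries of the diets did not overlap for 4 members, all higher on MCDHFD, where 65.4% of all tested genes did not overlap, 33.2% higher and 32.3% lower. The median log2 fold change of the 8 was 0.15, or 0.15 without Cth, against 0.00 over all tested genes, and diet called 58.4% of those genes in either direction.

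**Figure D1:**
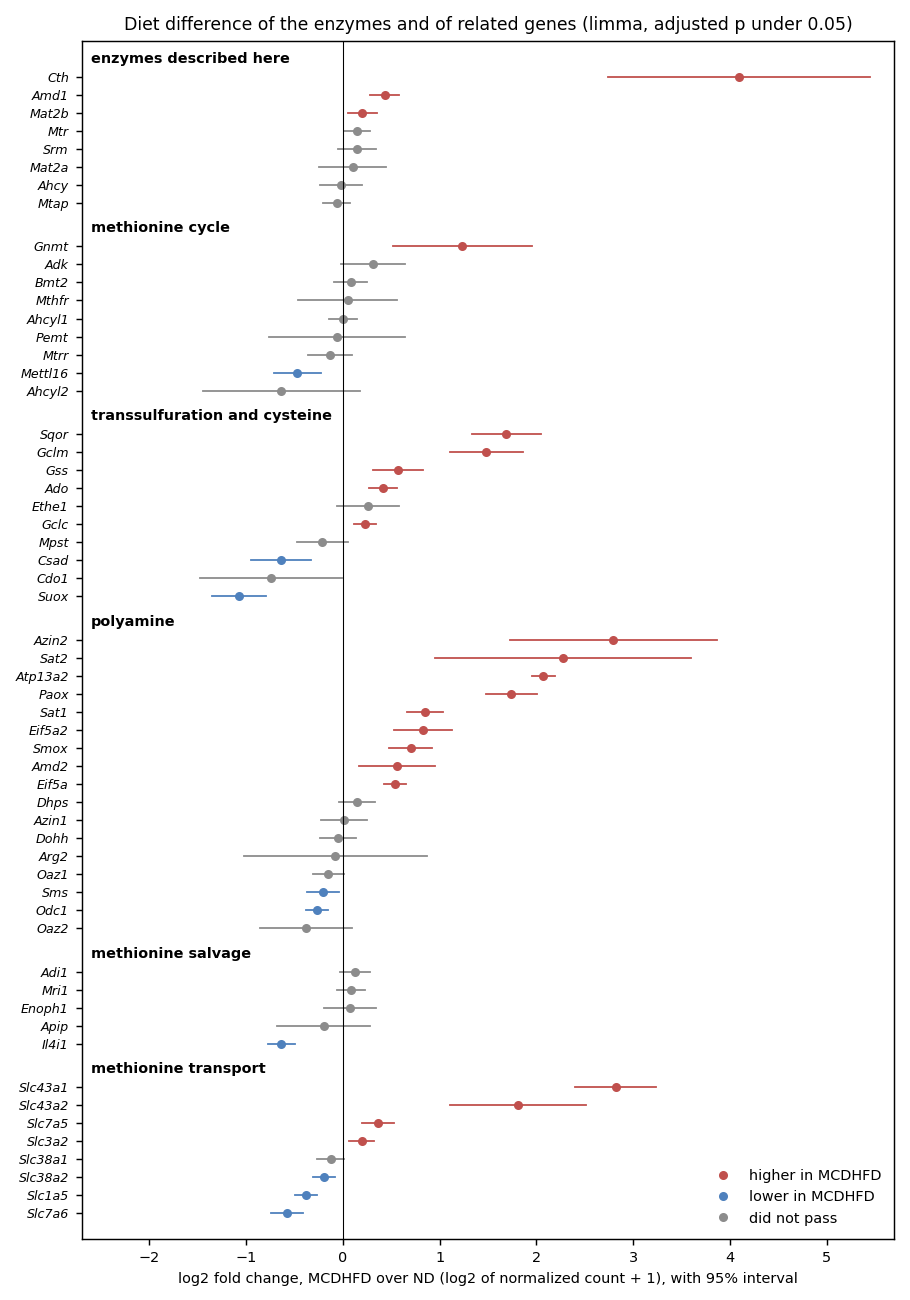
Log2 fold change (x axis, MCDHFD over ND, from limma on log2(normalized count + 1), 3 libraries per diet) with its 95% interval, for the 8 measured enzymes at the top and for related genes by list below, coloured by call. Among the 8, Cth lies far to the right at 4.09, Amd1 follows at 0.43 and Mat2b at 0.20, and the intervals of Mat2a, Ahcy, Srm and Mtap span 0.

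The libraries held 13188812 to 15482458 recovered reads, and the deposited normalized counts summed to 14119816 to 14752121 per library. Libraries of the same diet correlated at 0.985 to 0.988 and libraries of different diets at 0.897 to 0.916. The labelled cell type was present: every one of 19 markers of CD8 T cell identity was measured, with Cd8a at 5264 ± 458 normalized counts in MCDHFD and 13784 ± 350.4 in ND (SD, n = 3 each). All 19 were called lower on MCDHFD, and their summed share of the counts was 0.382 to 0.430% in MCDHFD and 0.817 to 0.823% in ND. Markers of other cells moved with diet. Of 24 monocyte and macrophage markers 22 were higher and 1 was lower (2.62 to 3.19% of counts in MCDHFD, 0.513 to 0.614% in ND), and all 19 erythroid markers tested were higher (0.131 to 0.205% in MCDHFD, 0.0302 to 0.0322% in ND). Of 16 neutrophil markers 14 were higher (0.0875 to 0.145% of counts in MCDHFD, 0.0133 to 0.0185% in ND), of 22 markers of dividing cells 11 were higher and 3 lower, and all 8 pancreatic acinar markers tested were higher. Of the acinar markers tested, 7 had an ND mean under 10 and passed the filter only through MCDHFD, as did 4 of the neutrophil markers, and 6 of the 11 acinar genes with a row were at 0 in every ND library. Of 12 B cell markers 11 were lower, of 15 dendritic cell markers 13 were lower and 2 higher, and of 9 plasma cell markers 4 were higher and 1 lower. Their part in the results that follow was not tested, and in bulk RNA fewer cells of a type and less RNA per cell cannot be told apart.

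The gene pair that makes S-adenosylmethionine outside the liver is Mat2a, the catalytic subunit of methionine adenosyltransferase II, and Mat2b, its regulatory subunit. Mat2a (ENSMUSG00000053907) lies at chr6:72432799-72439558 on the minus strand of mm10, and Mat2b (ENSMUSG00000042032) at chr11:40679314-40695203, also on the minus strand; gene positions throughout are those of the GENCODE M21 annotation. Mat2b had 1654, 1735 and 1630 normalized counts in MCDHFD libraries 1 to 3, against 1519, 1519 and 1337 in ND libraries 1 to 3. Every MCDHFD library was above every ND library. The difference was 1.15-fold, with 0.20 ± 0.07 (SE) as the log2 fold change, an adjusted p of 0.0282 from limma and a 95% interval of 0.05 to 0.35. The call for Mat2b was lost without MCDHFD library 2 (limma adjusted p = 0.0865), without ND library 3 (adjusted p = 0.0968) and with quantile scaling (adjusted p = 0.146), with log2 fold changes of 0.17, 0.14 and 0.12.

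Mat2a had 1715, 2616 and 2535 normalized counts in MCDHFD, against 1982, 2358 and 1967 in ND. MCDHFD library 1 was the lowest of all 6 and the other two MCDHFD libraries were the highest, so the diets overlapped. Its mean was 2289 ± 498.6 in MCDHFD and 2102 ± 221.6 in ND (SD, n = 3 each), and the coefficient of variation was 21.8% in MCDHFD and 10.5% in ND, the widest spread of any member in MCDHFD apart from Cth. The log2 fold change of 0.10 ± 0.15 (SE) did not pass (limma adjusted p = 0.591), with an interval of -0.24 to 0.45. Without MCDHFD library 1 it was 0.30 and passed (limma adjusted p = 0.019), and without MCDHFD library 2 it was -0.01. The ratio of Mat2a to Mat2b within a library was 1.04, 1.51 and 1.56 in MCDHFD, against 1.30, 1.55 and 1.47 in ND, a mean log2 difference of -0.10. An exact two-sided permutation test of that ratio gave p = 0.9 (1.0 after Benjamini-Hochberg adjustment over the 3 ratios computed), where the smallest p that 3 against 3 allows is 0.1.

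Particl, a transcript of the opposite strand at chr6:72439051-72440610, runs across the start of Mat2a and shares 508 bases of its exons, 11.3% of their length. It had 55.5, 56.0 and 50.3 normalized counts in MCDHFD, against 31.3, 34.0 and 43.5 in ND, with no overlap. Its log2 fold change was 0.57 ± 0.20 (SE), with a limma adjusted p of 0.0374. The call was lost without 5 of the 6 libraries in turn (limma adjusted p of 0.0607 to 0.106) and with DESeq2 (adjusted p = 0.119). In limma it was also lost with quantile scaling (adjusted p = 0.146), a replicate block (adjusted p = 0.0666) and no filter (adjusted p = 0.0585). The sources used here do not say whether reads were counted by strand, so reads of Particl and of the overlapped part of Mat2a cannot be told apart.

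The promoters of Mat2a, Mat2b and Amd1 are shown because Amd1 and Mat2b rose and because Particl covers that of Mat2a. Each is the 250 bases before the RefSeq start in GRCm38.p6, 5′ to 3′ in the direction of the gene, with the GC box (GGGCGG, on either strand) and the TATA box (TATAAA, on either strand) in capitals. The Mat2a promoter lies at chr6:72439557-72439806, that of Mat2b at chr11:40692683-40692932 and that of Amd1 at chr10:40302189-40302438, all on the minus strand. The stretch of Mat2b lies inside the gene as GENCODE M21 annotates it, before a RefSeq start within the gene.
Mat2a: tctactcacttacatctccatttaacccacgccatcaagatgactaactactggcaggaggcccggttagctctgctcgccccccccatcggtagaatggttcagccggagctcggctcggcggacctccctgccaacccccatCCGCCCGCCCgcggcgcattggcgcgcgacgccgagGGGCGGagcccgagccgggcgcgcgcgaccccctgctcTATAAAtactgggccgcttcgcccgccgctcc
Mat2b: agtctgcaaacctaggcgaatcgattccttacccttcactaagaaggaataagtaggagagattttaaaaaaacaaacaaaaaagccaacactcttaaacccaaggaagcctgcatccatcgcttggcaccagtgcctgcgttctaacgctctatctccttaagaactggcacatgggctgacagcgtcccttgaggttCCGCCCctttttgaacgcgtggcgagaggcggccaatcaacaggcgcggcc
Amd1: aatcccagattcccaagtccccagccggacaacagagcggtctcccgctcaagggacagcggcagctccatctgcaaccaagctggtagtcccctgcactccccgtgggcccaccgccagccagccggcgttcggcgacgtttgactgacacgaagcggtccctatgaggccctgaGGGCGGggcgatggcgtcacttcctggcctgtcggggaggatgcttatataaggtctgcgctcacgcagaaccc
Promoter sequence was matched for 6 of the 8 measured members, these and Ahcy, Mtr and Mtap, and not for Cth and Srm. The promoter of Cbs, which had no row among the genes, was left out of the counts that follow. The GC box was found in 5 of the 6, not in Mtap, and in 32.9% of 27025 promoters of the same length. The TATA box was found in Mat2a and in 13.0% of all promoters. None of the 6 held the E-box CACGTG (6.05% of all promoters), the ATF4 element TGATGNAA (3.53%) or the antioxidant response element TGACNNNGC (10.2%), searched on both strands. G and C made up 50.4 to 67.6% of the 6 promoters, highest in Mat2a, against a median of 52.0% over all promoters, and they held 9 to 29 CpG dinucleotides against a median of 6.

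Ahcy and Mtr close the cycle. Ahcy (ENSMUSG00000027597, chr2:155059310-155074497, minus strand) splits S-adenosylhomocysteine, which would otherwise inhibit methyltransferases. It had 358.6, 379.4 and 372.5 normalized counts in MCDHFD, against 405.3, 333.7 and 390.0 in ND. The MCDHFD libraries lay inside the range of the ND libraries. The log2 fold change was -0.02 ± 0.09 (SE; limma adjusted p = 0.874), with an interval of -0.23 to 0.19.

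The value of Ahcy depends on how reads of a near-identical copy were assigned. Gm4737, at chr16:46152985-46155077 on the minus strand, differs from the Ahcy coding sequence at 4 of 1296 bases and shares an unbroken run of 575 bases with it. A stretch of 60 coding bases of each, positions 429 to 488 of the GENCODE M21 coding sequence, is shown because it holds 2 of the 4 differences, given in capitals.
Ahcy: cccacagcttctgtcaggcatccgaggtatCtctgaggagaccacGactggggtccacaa
Gm4737: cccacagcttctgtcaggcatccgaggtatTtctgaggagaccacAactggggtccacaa
Gm4737 had 439.5, 496.3 and 473.1 normalized counts in MCDHFD, against 479.7, 428.0 and 438.5 in ND, and its diets overlapped too (log2 fold change 0.07, limma adjusted p = 0.519). It was listed above Ahcy itself in all 6 libraries. With the copy's reads added, Ahcy came to 839.8 ± 39.1 in MCDHFD and 825.0 ± 61.7 in ND (SD, n = 3 each), and the log2 fold change was 0.03 (limma adjusted p = 0.774).

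Mtr (ENSMUSG00000021311, chr13:12182712-12258113, minus strand), the cobalamin-dependent enzyme that methylates homocysteine back to methionine, had 1019, 987.7 and 1048 normalized counts in MCDHFD, against 893.8, 950.4 and 910.6 in ND. The diets did not overlap, and the spread within each was small, with coefficients of variation of 2.96% in MCDHFD and 3.17% in ND. The log2 fold change of 0.15 ± 0.06 (SE) had an interval of 0.02 to 0.28 and missed the threshold (limma adjusted p = 0.0532). It passed where genes of a mean under 50 were left out (limma adjusted p = 0.0492) and with library quality weights (adjusted p = 0.05 after rounding). Under the other alternatives, apart from the CD8 identity scaling, Mtr did not pass. With quantile scaling it was at 0.08 (limma adjusted p = 0.269), and DESeq2 gave an adjusted p of 0.143. The ratio of Mat2a to Ahcy was 4.78, 6.90 and 6.80 in MCDHFD, against 4.89, 7.07 and 5.04 in ND, a mean log2 difference of 0.12 (exact two-sided permutation p = 1.0).

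Cth had by far the highest fold change of the 8. Cth (ENSMUSG00000028179, chr3:157894248-157925077, minus strand) is cystathionine gamma-lyase, the enzyme that releases cysteine in the last step of transsulfuration. It was scarce: the libraries held 16, 27 and 29 reads of it in MCDHFD, against 0, 0 and 2 in ND. In normalized counts these were 15.1, 26.5 and 32.4 in MCDHFD, against 0, 0 and 1.98 in ND. Every MCDHFD library was above every ND library, and ND library 3 alone among the ND libraries had any read. Over the group, 72 reads in MCDHFD stood against 2 in ND, a ratio of 37.0 with a 95% counting interval of 9.89 to 312, which covers counting error only. The fitted log2 fold change was 4.09 ± 0.60 (SE; limma adjusted p = 0.000381), a value that depends on the pseudocount because ND lies under 3 counts per library. It was 2.36 to 5.23 over 16 alternatives without the CD8 identity scaling, each with an adjusted p under the threshold. Cth was tested only through its MCDHFD values, and the filter at a mean of 50 left it out. The alternatives refit the same few reads, so their passing is not separate evidence.

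Among tested genes averaging 50 normalized counts or more, Add2 and Samd14 had the patterns over the 6 libraries closest to that of Cth among those reported, by Euclidean distance of centred log2 values. The distances were 0.76 for Add2 and 0.78 for Samd14. Add2, which encodes beta-adducin of the membrane skeleton, had 249.4, 447.2 and 411.6 normalized counts in MCDHFD, against 19.6, 23.3 and 47.5 in ND. For Add2 as for Cth, MCDHFD library 1 was the lowest on the diet and ND library 3 the highest among ND libraries. For Cth the order of the ND libraries rests on 2 reads. Add2 was picked for its closeness to Cth over these same libraries, so this likeness is not separate evidence. MCDHFD libraries 2 and 3 stood in opposite order in Add2 and Cth. The erythroid list moved with Cth, at 0.131 to 0.205% of counts in MCDHFD against 0.0302 to 0.0322% in ND. So did the neutrophil list, at 0.0875 to 0.145% in MCDHFD against 0.0133 to 0.0185% in ND, and the macrophage and acinar lists described above. The part of these lists in the Cth result was not tested.

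**Figure D2:**
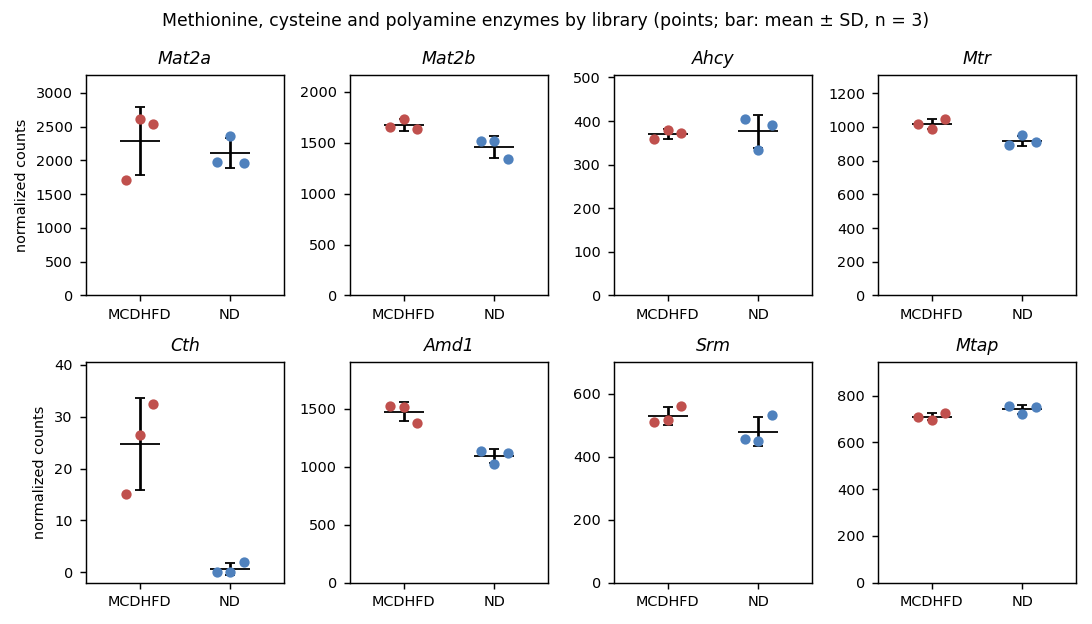
Normalized counts (y axis, one panel per gene) of the 8 measured enzymes in each library, MCDHFD left of ND, with the mean ± SD as a bar (n = 3). Amd1, Mat2b, Mtr and Cth show no overlap between diets, Mat2a has 1 low MCDHFD library, and Cth is at or near 0 in ND.

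Amd1, Srm and Mtap stand at the entry to polyamine synthesis. Amd1 (ENSMUSG00000075232, chr10:40287458-40302186, minus strand) decarboxylates S-adenosylmethionine and so commits it to polyamines. It had 1525, 1518 and 1381 normalized counts in MCDHFD, against 1138, 1022 and 1117 in ND. All 3 MCDHFD libraries were above all 3 ND libraries, with a gap wider than the range of either diet. The difference was 1.35-fold, with 0.43 ± 0.07 (SE) as the log2 fold change, an adjusted p of 0.000563 from limma and an interval of 0.28 to 0.59. It passed under all 17 alternatives run apart from the CD8 identity scaling and the stricter threshold, at 0.35 to 0.48, and under those 2 as well.

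Amd1 too has copies, of which 6 have rows in the table, and the 3 most abundant of them rose too. The 6 were 91.9 to 99.9% identical to its coding sequence, so not all are equally hard to tell apart from it. Amd2 differs from the coding sequence of Amd1 at 1 of 1002 bases and had 77.7 ± 10.9 normalized counts in MCDHFD and 52.0 ± 1.32 in ND (SD, n = 3 each), a log2 fold change of 0.56 (limma adjusted p = 0.02). The pseudogene Amd-ps3, also 1 base of 1002 apart, had 303.7 ± 44.1 in MCDHFD and 196.4 ± 18.1 in ND (log2 fold change 0.62, limma adjusted p = 0.00287). Amd-ps1, which differs at 31 of 993 aligned coding bases, had 105.1 ± 22.2 in MCDHFD and 67.3 ± 1.09 in ND (log2 fold change 0.61, limma adjusted p = 0.0185). Reads of these loci may come from Amd1, so their values are not separate evidence; summed with all 6 copies, Amd1 was 1968 ± 109.2 in MCDHFD and 1412 ± 75.0 in ND, a log2 fold change of 0.48.

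Srm (ENSMUSG00000006442, chr4:148591503-148594993, plus strand), spermidine synthase, had 510.1, 516.0 and 560.4 normalized counts in MCDHFD, against 456.2, 448.5 and 531.5 in ND. ND library 3 was above 2 of the MCDHFD libraries, so the diets overlapped. The log2 fold change was 0.15 ± 0.09 (SE; limma adjusted p = 0.185), with an interval of -0.05 to 0.35. The ratio of Srm to Amd1 was 0.335, 0.340 and 0.406 in MCDHFD, against 0.401, 0.439 and 0.476 in ND, a mean log2 difference of -0.29. The difference lay between -0.38 and -0.23 when single libraries were left out. The exact two-sided permutation p of that ratio was 0.2 (0.6 adjusted over the 3 ratios), in a design that cannot give a p under 0.1.

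Mtap (ENSMUSG00000062937, chr4:89137122-89181081, plus strand) cleaves methylthioadenosine, the by-product of polyamine synthesis, in the first step of methionine salvage. It had 707.8, 696.8 and 725.9 normalized counts in MCDHFD, against 755.7, 720.8 and 750.2 in ND. The diets overlapped by a single pair, MCDHFD library 3 above ND library 2. The log2 fold change was -0.06 ± 0.06 (SE), with an adjusted p of 0.389 from limma and an interval of -0.20 to 0.07, and its coefficients of variation of 2.07% in MCDHFD and 2.53% in ND were the lowest of the 8.

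The order of the members, from rows of single genes, was read from normalized counts per kilobase of exon, since longer genes collect more reads. In MCDHFD the means per kilobase were 510 for Mat2a, 416 for Amd1, 334 for Mat2b, 331 for Srm, 220 for Mtap, 132 for Ahcy, 119 for Mtr and 8.84 for Cth. In ND they were 469 for Mat2a, 308 for Amd1, 299 for Srm, 292 for Mat2b, 230 for Mtap, 134 for Ahcy, 108 for Mtr and 0.236 for Cth. In these rows the order was the same on both diets but for Mat2b and Srm, whose libraries overlapped in each. Mat2a and Amd1 also overlapped in MCDHFD, and Amd1 and Srm in ND, and no other neighbours did. With the reads of their copies added, Amd1 came to 556 per kilobase in MCDHFD, above but overlapping Mat2a, and to 399 in ND, below Mat2a without overlap. Ahcy with its copy came to 299 in MCDHFD and 294 in ND, above Mtap on both diets, so the places of Amd1 and Ahcy in the order depend on how reads were assigned.

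All of these folds rest on the deposited scaling. When libraries were rescaled so that the CD8 identity markers had the same mean level in each, the middle of all tested genes moved up by 1.02 on the log2 scale and all 8 members were called higher on MCDHFD, Ahcy and Mtap included, as were 83.2% of all tested genes, with 3.4% called lower. Relative to the median of all genes under that scaling, Cth stood at 3.67, Amd1 at 0.44, Mat2b at 0.20, Mtr at 0.15, Srm at 0.15, Mat2a at 0.10, Ahcy at -0.02 and Mtap at -0.06. This scaling is 1 factor per library, so differences between genes are nearly those of the deposited scale by construction.

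**Figure D3:**
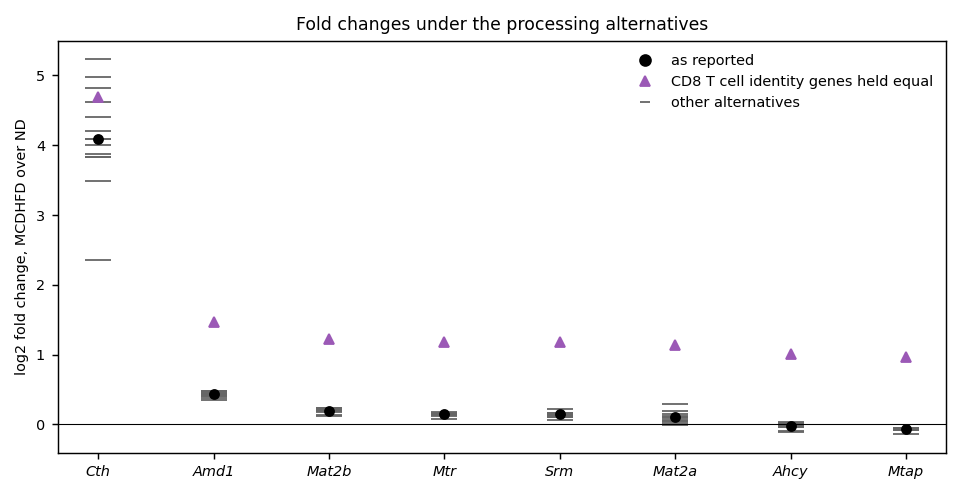
Log2 fold change (y axis, MCDHFD over ND) of each measured enzyme (x axis) as reported (dot), with the mean level of the CD8 identity markers held equal (triangle) and under the other alternatives (dashes). Amd1 stays between 0.35 and 0.48 except under the CD8 identity scaling, which moves every gene upwards, and Mat2a spreads from -0.01 to 0.30 as single libraries are left out.

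Other genes of these routes were taken from lists of 57 companions, 52 with a row and 49 tested. Of the 49, 19 were higher, 9 were lower and 21 did not pass, with a median log2 fold change of 0.08, where 30.3% of all tested genes were higher and 28.1% lower. Of the 19, Gnmt, Azin2 and Sat2 had an ND mean under 10 and passed the filter only through the MCDHFD libraries. Under the CD8 identity scaling 45 companions were higher and 0 lower, where 83.2% of all tested genes were higher and 3.4% lower, so the falls described below hold for the deposited scaling. Of 9 methionine cycle companions 1 was higher and 1 lower (median 0.00), and of 10 transsulfuration and cysteine companions 5 were higher and 2 lower (median 0.24). Of 17 polyamine companions 9 were higher and 2 lower (median 0.54, or 0.15 without 2 genes with an ND mean under 10), of 5 salvage companions 0 were higher and 1 lower (median 0.08), and of 8 transport companions 4 were higher and 3 lower (median 0.03).

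In the methionine cycle, Gnmt, the glycine methyltransferase that disposes of excess S-adenosylmethionine in liver, was higher but scarce and tested only through its MCDHFD values, with 27, 19 and 24 reads in MCDHFD, against 8, 12 and 9 in ND (log2 fold change 1.24, limma adjusted p = 0.00852). Mettl16, the RNA methyltransferase that acts on Mat2a transcripts, had 306.8, 381.3 and 397.1 normalized counts in MCDHFD, against 526.7, 476.7 and 492.9 in ND. It fell by 0.47 on the log2 scale (limma adjusted p = 0.00497), while Mat2a itself did not pass. Ahcyl1, a relative of Ahcy without its known activity, averaged 1464 ± 65.6 in MCDHFD and 1462 ± 72.6 in ND, and Bmt2, a methyltransferase known as a sensor of S-adenosylmethionine in nutrient signalling, averaged 842.6 ± 8.81 in MCDHFD and 799.2 ± 74.6 in ND (SD, n = 3 each). Neither passed. Mtrr, which keeps Mtr in its active form, averaged 389.0 ± 19.0 in MCDHFD and 428.1 ± 50.2 in ND and did not pass either (log2 fold change -0.13, limma adjusted p = 0.278); Mtrr, Odc1, Sms, Sat1, Smox, Eif5a, Gclc, Gss, Slc7a5, Eif5a2, Slc3a2, Particl and Gm4737 were named after their values were seen.

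Downstream of cysteine, Gclm, Gclc and Gss, which make glutathione, all rose. Gclm, the modifier subunit of glutamate-cysteine ligase, had 608.0, 765.6 and 578.3 normalized counts in MCDHFD, against 193.8, 293.8 and 213.8 in ND (log2 fold change 1.48, limma adjusted p = 7.31e-05). Gclc, its catalytic subunit, was higher by 0.23 (limma adjusted p = 0.00448) and Gss, glutathione synthetase, by 0.57 (limma adjusted p = 0.00245) on the log2 scale. Sqor, which oxidizes hydrogen sulfide in mitochondria, had 238.1, 275.2 and 290.8 in MCDHFD, against 100.8, 73.9 and 74.2 in ND (log2 fold change 1.69, limma adjusted p = 2.35e-05). Suox, sulfite oxidase, fell by 1.07 (limma adjusted p = 8.93e-05), and Csad, which leads from cysteine sulfinate towards taurine, fell by 0.64 (limma adjusted p = 0.00348). Mpst and Ethe1, both of sulfur metabolism, did not pass, at -0.21 and 0.26. With quantile scaling Mpst passed as lower (-0.29, limma adjusted p = 0.047).

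The 9 polyamine companions that rose were Atp13a2, Azin2, Sat1, Sat2, Smox, Paox, Eif5a, Eif5a2 and Amd2, the near-copy of Amd1, and the 2 that fell were Odc1 and Sms (both were higher under the CD8 identity scaling). Atp13a2, the lysosomal polyamine exporter, had 7251, 7674 and 7684 normalized counts in MCDHFD, against 1713, 1815 and 1848 in ND (log2 fold change 2.07, limma adjusted p = 5.65e-08). Sat1, which acetylates spermidine and spermine for export or breakdown, had 3416, 4279 and 4077 in MCDHFD, against 2099, 2202 and 2211 in ND (log2 fold change 0.85, limma adjusted p = 3.23e-05). The oxidases followed, with Paox higher by 1.74 (limma adjusted p = 3.29e-06) and Smox by 0.70 (limma adjusted p = 0.000324). Of the synthetic enzymes beside Amd1, Odc1, ornithine decarboxylase, had 2954, 2930 and 2879 in MCDHFD, against 3670, 3388 and 3489 in ND, and fell by 0.27 (limma adjusted p = 0.00173). Sms, spermine synthase, fell by 0.20 (limma adjusted p = 0.0412), a call that was lost when any of 5 single libraries was left out (all but MCDHFD library 1). That call was also lost with DESeq2 (adjusted p = 0.105), and in limma with a replicate block (adjusted p = 0.0595) and no filter (adjusted p = 0.0531).

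Eif5a, the translation factor that carries a hypusine made from spermidine, had 5171, 5588 and 5354 normalized counts in MCDHFD, against 3665, 3724 and 3671 in ND (log2 fold change 0.54, limma adjusted p = 2.12e-05). Among regulators of ornithine decarboxylase, Azin2, tested only through its MCDHFD values, was higher on few reads, 22, 23 and 27 in MCDHFD against 4, 1 and 4 in ND (ratio 8.23, 95% counting interval 4.10 to 18.7). Sat2, tested likewise, was higher on 14, 21 and 22 reads in MCDHFD against 1, 3 and 8 in ND (ratio 4.89, counting interval 2.59 to 10.0). Both intervals cover counting error only. The limma adjusted p was 0.000896 for Azin2 and 0.00861 for Sat2. Oaz1 and Azin1, the antizyme and its inhibitor, did not pass, at -0.15 and 0.01. In limma Oaz1 passed as lower with quantile scaling (-0.22, adjusted p = 0.0285) and with quality weights (-0.19, adjusted p = 0.0499).

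**Figure D4:**
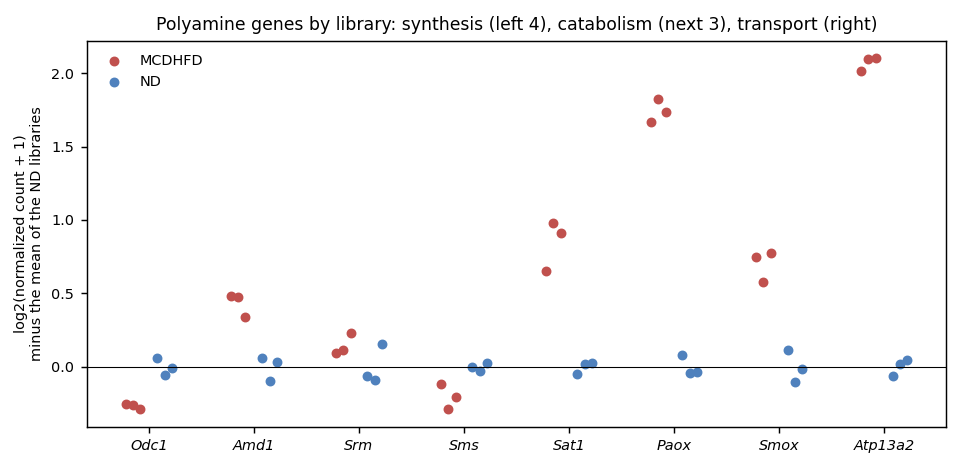
Log2(normalized count + 1) minus the mean of the ND libraries (y axis) for 8 polyamine genes (x axis), 1 point per library, MCDHFD left of ND. On the deposited scale Amd1, Sat1, Paox, Smox and Atp13a2 are higher in all 3 MCDHFD libraries than in any ND library, Srm overlaps, and Odc1 and Sms are lower in all 3, which the CD8 identity scaling turns round.

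On the salvage list, downstream of Mtap, Il4i1 alone passed. Il4i1, a secreted amino acid oxidase and not an enzyme of the salvage steps themselves, had 826.3, 834.4 and 774.0 normalized counts in MCDHFD, against 1283, 1305 and 1196 in ND. It fell by 0.64 on the log2 scale (limma adjusted p = 3.6e-05). Mri1 and Adi1, which catalyse steps of the salvage route, were at 0.08 and 0.13 and did not pass.

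Among carriers that can bring in methionine, Slc43a1 had 157.2, 197.5 and 203.6 normalized counts in MCDHFD, against 21.5, 28.2 and 26.7 in ND (log2 fold change 2.82, limma adjusted p = 2.79e-06). Its relative Slc43a2 had 4004, 4152 and 4141 in MCDHFD, against 1492, 629.4 and 1692 in ND (log2 fold change 1.81, limma adjusted p = 0.000948), with ND library 2 well below the other two. Slc7a5, the light chain of the carrier LAT1 that activated T cells use, had 1401, 1449 and 1487 in MCDHFD, against 1014, 1208 and 1160 in ND (log2 fold change 0.36, limma adjusted p = 0.00266). Its heavy chain Slc3a2 was higher by 0.20 (limma adjusted p = 0.0153), a call lost without MCDHFD library 3 (adjusted p = 0.062) and without ND library 2 (adjusted p = 0.0569). The neutral amino acid carriers Slc1a5 and Slc7a6 fell by 0.38 (limma adjusted p = 0.000204) and 0.58 (limma adjusted p = 0.000148). Slc38a2 had 7012, 6433 and 6706 in MCDHFD, against 7579, 7636 and 7858 in ND, and fell by 0.20 (limma adjusted p = 0.00972). Slc38a2 was named after its values were seen and was not among the genes followed under the alternatives. Slc38a1 did not pass at -0.13. In limma it passed as lower with quantile scaling (adjusted p = 0.0468), quality weights (adjusted p = 0.0464) and without MCDHFD library 1 (adjusted p = 0.0165). The markers of macrophages and of CD8 T cells moved with these companions by the shares given above, and their part in the companions' values was not tested.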

How the data were processed

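Splenic CD8+ T cell RNA was sequenced in 3 MCDHFD and 3 ND libraries, grouped by their titles. The deposited table holds a signal per gene: normalized counts, which the values show to be read counts that the authors divided by 1 size factor per library. Per the submitters' processing notes the build was mm10, and the sources used here name neither aligner nor counting tool. All values of all 6 libraries came out as whole reads within 0.01, and these reads served the count tests. In ND library 3 a read is worth 0.99, close to 1, but taking it as 1 would leave 1.15% of the values above 0 whole. Symbols were matched for 19202 of 19323 Ensembl identifiers through GENCODE M21, and positions come from that annotation.

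Values were tested as log2(value + 1) with limma 3.58.1 (R 4.3.3), an intensity trend and Benjamini-Hochberg adjustment over 13430 genes of a mean of at least 10; fold changes on this scale understate the change of low genes. Because the table holds normalized values, edgeR 4.0.16 and DESeq2 1.42.0 on recovered reads were alternatives, beside other pseudocounts, filters, scalings, weights, thresholds, a replicate block and leaving out each library. Ratios of 2 genes were compared by exact permutation over libraries (SciPy 1.17.1), and copies were found with blastn 2.17.0 at 90% identity over 300 bases. The fit was also run on simulated counts, with the same spread for all genes and far fewer genes changed than were called here. That run therefore does not measure its error rate on these data. Libraries of a diet differed by more than sampling noise, with a chi-square per degree of freedom of 6.44 to 12.4.

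The members and all gene lists were chosen with earlier results of these data known. The genes named were the members, per list up to 4 companions past the threshold by size and up to 2 others by level, the 3 genes most like Cth (1 of them is not reported here), up to 2 markers per list, and those said to be named after their values were seen.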

Additional observations from a re-analysis of the deposited data

How the results depend on the processing

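The 6 libraries limit the precision, and Cth, Gnmt, Azin2 and Sat2 rest on few reads. Over 66 named genes, 1248 values under the alternatives kept direction and side of the threshold in 1157 cases. Many of these genes were picked by size, level or likeness in these same data, so that count is not separate evidence. Under the CD8 identity scaling 39 of the 66 kept both. When single libraries were left out, 2 to 4 members were called higher and 0 lower, 17 to 20 companions higher and 8 to 10 lower, and 3673 to 3984 of the tested genes higher and 3320 to 3689 lower.

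Scaling to an equal mean level of the CD8 identity markers changed most. It called 11179 genes higher and 456 lower, 8 members higher, and 45 companions higher and 0 lower. Log2 fold changes that turned positive there were Ahcy 1.01, Mtap 0.97, Mettl16 0.56, Csad 0.39, Mpst 0.82, Oaz1 0.88, Il4i1 0.40, Slc7a6 0.45, Slc1a5 0.65, Slc38a1 0.90, Odc1 0.77, Sms 0.83, Mtrr 0.90, Lck 0.0564 and Ccr7 0.44. The markers' own lower level sets this scaling. Quantile scaling called 3552 genes higher and 4557 lower.

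Apart from the CD8 identity scaling, genes near 0 changed sign, and none passed with the changed sign. Mat2a passed with its reported sign when MCDHFD library 1 was left out (limma adjusted p = 0.019). Ahcy was 0.0144 with quality weights and 0.0272 with its copy's reads added, a setting chosen after seeing the data. With single libraries left out, Ahcy lay between -0.1032 and 0.0367 (0.0034 without MCDHFD library 1 and 0.009 without ND library 3), Mat2a between -0.0069 and 0.2976, Ahcyl1 between -0.0394 and 0.0386 and Azin1 between -0.0863 and 0.0718. Ahcyl1 was -0.0061 with TMM, -0.0857 with quantile scaling, -0.0085 with edgeR and -0.0013 with DESeq2. Azin1 was -0.0741 with quantile scaling and -0.0002 with edgeR, and Gm4737 was -0.0175 with quantile scaling. The cause was not tested.

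Libraries with the same replicate number were not paired by the labels, and their deviations correlated at 0.0365, 0.0621 and 0.0057. With the replicate number as a block, 3 members were higher and 0 lower, 19 companions higher and 8 lower, and 4010 genes higher and 3697 lower.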
